A study of Homo sapiens with 24 samples.

Results

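The TCF/LEF factors and the TLE corepressors were followed as 9 genes, which were chosen by name, with earlier results of these data known. They were the 4 TCF/LEF genes TCF7, TCF7L1, TCF7L2 and LEF1 and the 5 TLE genes TLE1, TLE2, TLE3, TLE4 and TLE5. All 9 were present among the 58051 Ensembl genes counted by RNA-seq in 24 libraries. The libraries came from HT29, HCT116 and SW480, which are established human colorectal carcinoma cell lines. HT29 and SW480 carry inactivated APC and HCT116 carries an activating CTNNB1 mutation, and WT and KO cells share these lesions. KO cells had lost CTNNB1, the gene of β-CATENIN, by CRISPR/Cas9 deletion of exon 7 from both alleles. WT cells were clones that had also been exposed to CRISPR/Cas9 but had kept the exon. Each line and genotype was represented by 2 clones grown from single cells, in HT29 by WT clones 11 and 40 and KO clones 28 and 38, in HCT116 by WT clones 4 and 6 and KO clones 44 and 47, and in SW480 by WT clones 4 and 5 and KO clones 17 and 21. Every clone was sampled in rounds A and B, so that each group of 4 libraries stood for 2 clones. Libraries of the same clone share their founder cell, and p-values over 4 libraries therefore measure the spread of clones and of rounds together.

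TCF/LEF proteins bind DNA through an HMG box and recruit β-CATENIN through their amino termini. In the absence of nuclear β-CATENIN they hold TLE proteins, which bring histone deacetylases to WNT target genes and keep them silent, and β-CATENIN converts the same DNA-bound factors to activators. TCF7L2 is the main family member of the intestinal epithelium, TCF7L1 is known mostly as a repressor, and TCF7 and LEF1 are themselves known as WNT target genes. TLE1 to TLE4 are full-length corepressors with a WD40 repeat domain. TLE5, also called AES, lacks that domain and can oppose the longer members.

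The libraries held 22297049 to 29068378 reads on genes. The values used below are normalised read counts, which are reads divided by a library's size factor, and a count of 3 reads corresponded to about 3 units. The targeted gene was checked first. CTNNB1 stood at 6021 ± 99.3 in HT29 WT and 299.8 ± 34.1 in HT29 KO, at 11918 ± 999.9 and 218 ± 28.9 in HCT116, and at 46967 ± 4376 and 1024 ± 229 in SW480 (mean ± SD, n = 4 libraries each), so that 4.98%, 1.83% and 2.18% of the WT transcript remained and no KO library overlapped a WT library. The 9 epithelial markers summed to 131453 to 750601 in every library, with 6 or 7 of them above 10 in all libraries of each group. The 5 leukocyte markers summed to at most 118 and the endothelial marker CDH5 to at most 4.28, whereas the 4 fibroblast markers reached 439 in HCT116 and 398 in SW480. HCT116 KO clone 47 round A stood apart, with a read in 35449 genes against 20256 to 24944 genes in the other 23 libraries, and log2 changes, named differences of the KO effect and sums of the 9 members in HCT116 KO cells are given with and without it.

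Because the read counts sum all transcripts of a gene, RefSeq start sites of TCF7, TCF7L2 and LEF1 are shown with the sequence before them, placed on GRCh37 by exact match. A further internal start of TCF7L2, at chr10:114889030, and the start sites of the other members are not printed. Capitals mark the letters CTTTG on either strand, which form the core of the sequence that the HMG box of TCF/LEF proteins recognises. TCF7 spans chr5:133450372-133487556 on the plus strand and TCF7L2 spans chr10:114710006-114927437 on the plus strand. For TCF7 the stretch chr5:133451079-133451253 before the upstream start and chr5:133459059-133459308 before an internal start are printed, and proteins made from internal starts of TCF7 are known to lack the β-CATENIN binding region. For TCF7L2 these are chr10:114709756-114710005 at the gene's 5′ end and chr10:114886142-114886391 before an internal start. The TCF7 and TCF7L2 stretches contain no annotated exon. The upstream TCF7 start, at chr5:133451304, lies inside the annotated gene, and 75 bases of its window are in annotated exons and are left out. The LEF1 window (gene at chr4:108968701-109090112, minus strand) lies in an annotated 5′ exon, and only the 30 bases around its match, chr4:109087564-109087593, are shown.
TCF7 upstream start: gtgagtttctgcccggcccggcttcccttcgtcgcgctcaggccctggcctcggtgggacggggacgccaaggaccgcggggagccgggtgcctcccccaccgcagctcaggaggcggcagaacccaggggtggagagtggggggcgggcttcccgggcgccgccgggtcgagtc
TCF7 internal start: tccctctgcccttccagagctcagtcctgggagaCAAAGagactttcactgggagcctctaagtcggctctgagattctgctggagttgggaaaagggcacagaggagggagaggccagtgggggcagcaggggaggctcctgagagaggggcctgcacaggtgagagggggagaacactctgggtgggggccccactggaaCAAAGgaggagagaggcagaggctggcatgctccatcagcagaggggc
TCF7L2 upstream start: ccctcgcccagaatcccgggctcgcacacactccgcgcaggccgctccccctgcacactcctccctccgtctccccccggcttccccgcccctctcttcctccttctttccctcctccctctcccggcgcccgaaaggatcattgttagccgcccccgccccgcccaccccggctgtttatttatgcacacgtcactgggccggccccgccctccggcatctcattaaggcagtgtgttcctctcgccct
TCF7L2 internal start: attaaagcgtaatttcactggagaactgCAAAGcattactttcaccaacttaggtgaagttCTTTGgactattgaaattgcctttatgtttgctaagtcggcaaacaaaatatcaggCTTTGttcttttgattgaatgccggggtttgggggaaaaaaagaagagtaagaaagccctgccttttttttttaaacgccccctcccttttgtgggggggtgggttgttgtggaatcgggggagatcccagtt
LEF1 match: gccttttccctcCAAAGaaacttggaggat

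In the 250 bases before the start sites, CTTTG was found 2 times before the internal TCF7 start and not before the upstream one. It was found 3 times before the internal TCF7L2 start shown, 1 time before the internal TCF7L2 start not printed and not before the upstream one. It was found once before the LEF1 start site at chr4:109087457, which lies inside the annotated gene. Over all 17 windows of the 9 members, 9 windows of 6 genes contained the 5 letters, and 42.1% of 35116 promoter windows of all genes did so too. The windows of TCF7L1, TLE1 and TLE2 contained none. The longer word CTTTGA, which includes the first, was present in 3 member windows, of TLE4 and TLE5, and in 11.2% of all windows. A match is a description of the sequence, and binding was not measured.

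Loss of β-CATENIN was accompanied by a lower TCF7 transcript in all 3 lines, by a lower LEF1 transcript in SW480, and by TCF7L2 changes of opposite direction in HCT116 and SW480. Among the TLE genes, TLE1 rose in HCT116 and SW480, TLE5 rose in SW480, and TLE3 fell in SW480. In SW480 the rises of TCF7L2, TLE1 and TLE5 and a fall of TCF7L1 were smaller than the fold threshold. Genes were tested within each line by limma on log2(normalised read count + 1) with Benjamini-Hochberg adjustment over all genes tested, and log2 changes below are KO minus WT on that scale. A gene passed the test at an adjusted p below 0.05 and passed both thresholds if the absolute log2 change was also above 1. Values of at least 10 in 4 libraries were required, which 7 of the 9 members met in HT29 and in HCT116 and all 9 in SW480. In HT29 1 of 7 members passed both thresholds, against 2.3% of all genes tested, and the same gene was the 1 that passed the test, against 2.56%, of which 0.476% were lower and 2.08% higher in KO. In HCT116 3 of 7 passed both thresholds, against 5.06%, and the same 3 passed the test, against 14%. Of these, 2 were lower and 1 higher in KO, against 5.93% and 8.05% of all genes. In SW480 3 of 9 passed both thresholds, against 17.5%, and 7 passed the test, against 48.1%, with 4 lower and 3 higher in KO against 22.1% and 26.1%.

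**Figure D1:**
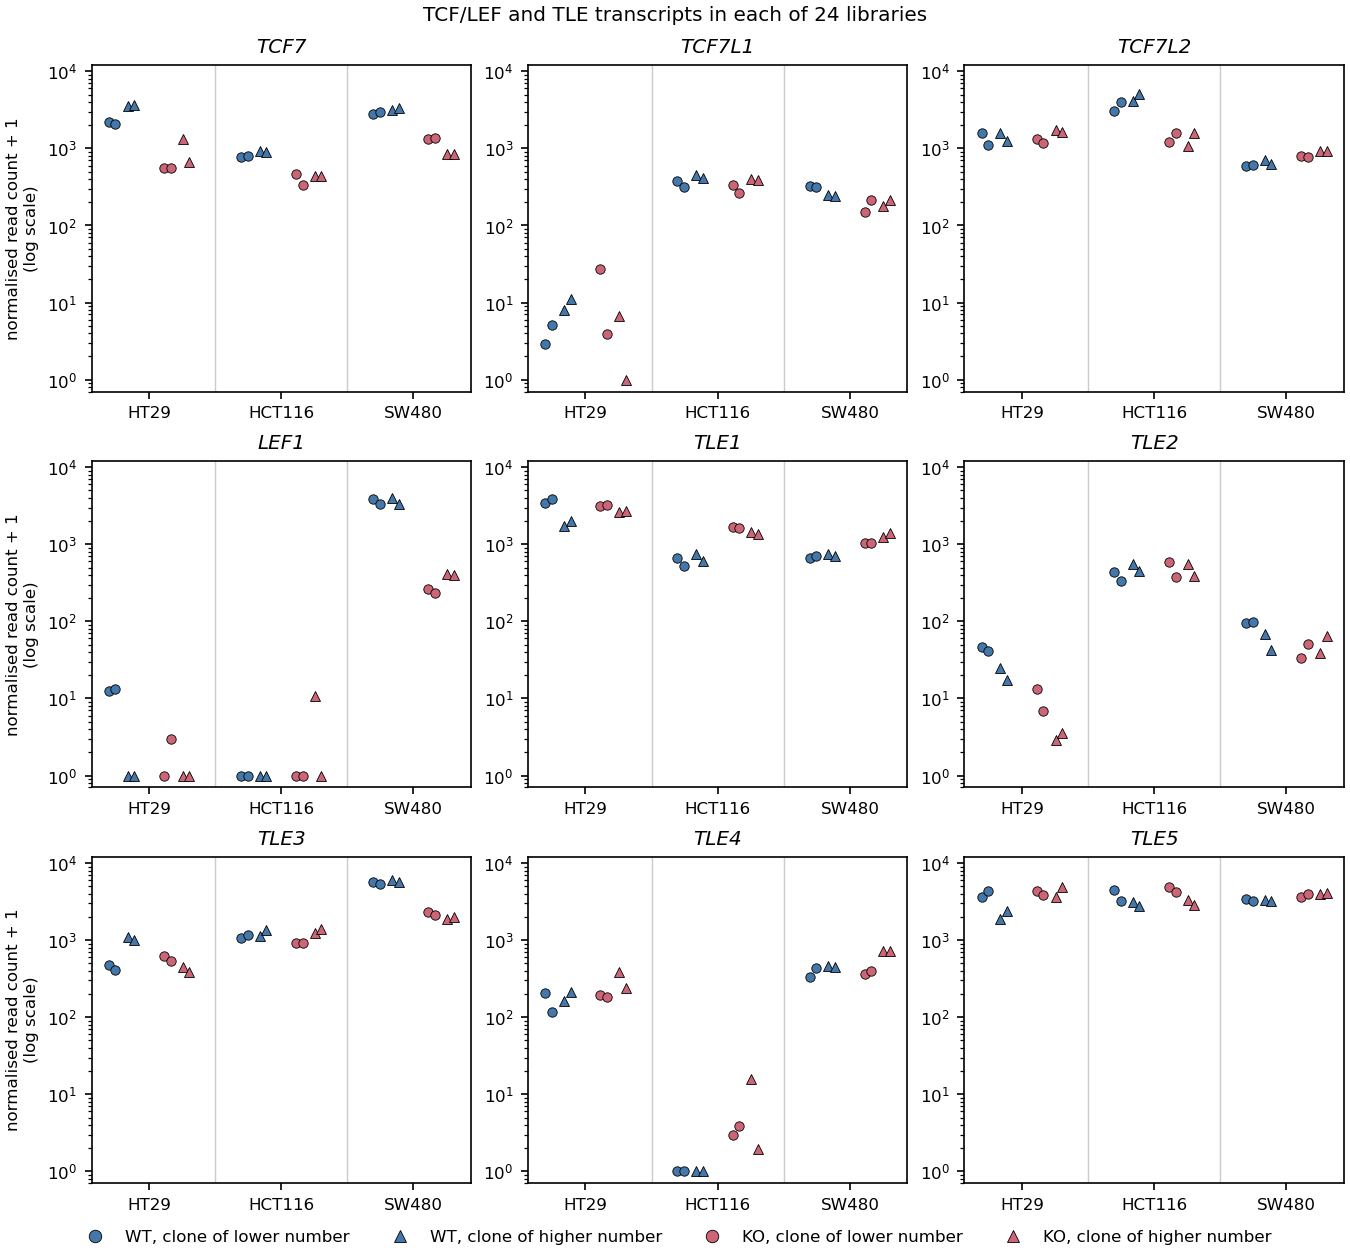
Normalised read count plus 1 (log scale) of the 9 members in each of the 24 libraries, grouped by cell line, with WT in blue and KO in red, circles for the clone of lower number, triangles for the clone of higher number and round A left of round B. TCF7 is lower in all KO libraries of a line than in its WT libraries, and LEF1 is above 200 in SW480 alone.

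TCF7, which encodes the factor TCF1, was the member that passed both thresholds in every line. In HT29 its normalised read counts in rounds A and B were 2222 and 2101 in WT clone 11, 3580.3 and 3614 in WT clone 40, 552 and 549.9 in KO clone 28 and 1327 and 659 in KO clone 38. All 4 KO libraries were below all 4 WT libraries, and KO clone 38 round A was the highest KO library. The mean in KO was 26.8% of the WT mean, with a log2 change of -1.96 (SE 0.32, adjusted p = 0.0183). In HCT116 the counts were 774 and 792 in WT clone 4, 929 and 901 in WT clone 6, 459.8 and 336 in KO clone 44 and 442 and 436 in KO clone 47. Again no KO library reached the WT range, the KO mean was 49.3% of WT and the log2 change was -1.02 (SE 0.13, adjusted p = 0.000559). Without KO clone 47 round A it was -1.05 (adjusted p = 0.00154). With WT clone 6 left out it was -0.91, which did not pass the fold threshold, although the test was passed in all 21 alternative fits. SW480 had 2776 and 2949 in WT clone 4, 3185 and 3362 in WT clone 5, 1322 and 1375 in KO clone 17 and 838 and 852 in KO clone 21. Here KO clone 21 was lower than KO clone 17 in both rounds and both were below WT, with a KO mean of 35.7% of WT and a log2 change of -1.52 (SE 0.17, adjusted p = 4.64e-05).

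The HT29 call for TCF7 depended on single libraries and on the treatment of clones, although the direction did not. The log2 change was -1.83 (adjusted p = 0.0579) without KO clone 28 round A, -1.84 (adjusted p = 0.0652) without WT clone 40 round A and -1.83 (adjusted p = 0.0626) without WT clone 40 round B. It was -1.96 (adjusted p = 0.0821) when clone was a random effect and -1.91 (adjusted p = 0.563) over 2 clones per genotype with rounds averaged. The call was also lost with WT clone 40 left out and with KO clone 28 left out, where the log2 change was -1.58 in the latter fit. The decreases in HT29, HCT116 and SW480 were not shown to differ in size. The difference of the KO effect was -0.93 (SE 0.34, adjusted p = 0.0953) for HT29 minus HCT116, -0.44 (SE 0.34, adjusted p = 0.433) for HT29 minus SW480 and 0.49 (SE 0.34, adjusted p = 0.403) for HCT116 minus SW480, with 95% intervals of -1.63 to -0.23, -1.14 to 0.26 and -0.20 to 1.19. Without HT29 KO clone 38 round A the first of these was -1.23 (adjusted p = 0.00728). SKP1, which shares 210 exon bases with TCF7 on the opposite strand, is counted without strand in these libraries, and reads in those bases cannot be assigned to one gene.

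LEF1, the family member that is normally absent from healthy intestinal epithelium, was abundant in SW480 alone. Its SW480 counts were 3885 and 3322 in WT clone 4, 3959 and 3323 in WT clone 5, 261 and 230.3 in KO clone 17 and 408 and 396 in KO clone 21. The KO mean was 8.94% of WT, the log2 change was -3.52 (SE 0.18, adjusted p = 2.14e-07), and no KO library overlapped WT. Both KO clones retained more than 200, and KO clone 21 exceeded KO clone 17 in each round. The antisense gene LEF1-AS1, which shares 279 exon bases with LEF1, was at 82.9 ± 8.99 in SW480 WT and 13.3 ± 11.9 in SW480 KO (mean ± SD, n = 4), and reads in the shared bases cannot be assigned to one strand. In HT29 LEF1 was at 11.5 and 12.2 in the rounds of WT clone 11 and at 0 in both rounds of WT clone 40, and the KO libraries held at most 1.96. In HCT116 all 4 WT libraries and 3 of 4 KO libraries were at 0, and KO clone 47 round A, the library with reads in most genes, held 9.63 from 9 reads. LEF1 did not meet the filter in HT29 or HCT116 and was not tested there.

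TCF7L2 moved in opposite directions in HCT116 and SW480. In HCT116 it stood at 3021 and 4056 in WT clone 4, 4084 and 5157 in WT clone 6, 1194 and 1594 in KO clone 44 and 1089 and 1599.6 in KO clone 47. KO libraries were all below WT libraries and their mean was 33.6% of WT, with a log2 change of -1.57 (SE 0.18, adjusted p = 0.000193), and -1.47 (adjusted p = 0.000657) without KO clone 47 round A. In SW480 the counts were 598 and 603 in WT clone 4, 712 and 618 in WT clone 5, 788 and 779 in KO clone 17 and 929 and 934 in KO clone 21. There the KO libraries were all above WT libraries, at 136% of the WT mean. The SW480 log2 change of 0.44 (SE 0.10, adjusted p = 0.00347) passed the test but not the fold threshold, and it was 0.43 (adjusted p = 0.0871) with rounds averaged. HT29 had 1579 and 1117 in WT clone 11, 1569 and 1256 in WT clone 40, 1306 and 1172 in KO clone 28 and 1729 and 1619 in KO clone 38, and these ranges overlapped. The HT29 log2 change was 0.08 (SE 0.19, adjusted p = 0.865), with a 95% interval of -0.35 to 0.50. The difference of the KO effect passed both thresholds for HT29 minus HCT116, at 1.65 (SE 0.24, adjusted p = 9.05e-05), and for HCT116 minus SW480, at -2.01 (SE 0.24, adjusted p = 2.57e-06). For HT29 minus SW480 it was -0.36 (SE 0.24, adjusted p = 0.351).

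TCF7L1 was near the limit of counting in HT29, where its 8 libraries held 0 to 26 reads and it was not tested. In SW480 the counts were 326 and 311 in WT clone 4, 245 and 237 in WT clone 5, 149 and 213 in KO clone 17 and 179 and 216 in KO clone 21. KO libraries lay below WT libraries, and the log2 change of -0.56 (SE 0.16, adjusted p = 0.0142) passed the test but not the fold threshold. It was -0.36 (adjusted p = 0.163) when WT clone 4 was left out and -0.56 (adjusted p = 0.0673) when clone was a random effect. In HCT116, where TCF7L1 ranged from 260.0 to 451 over both genotypes, the groups overlapped and the log2 change was -0.17 (SE 0.17, adjusted p = 0.547) with a 95% interval of -0.54 to 0.20, and -0.24 (adjusted p = 0.434) without KO clone 47 round A.

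**Figure D2:**
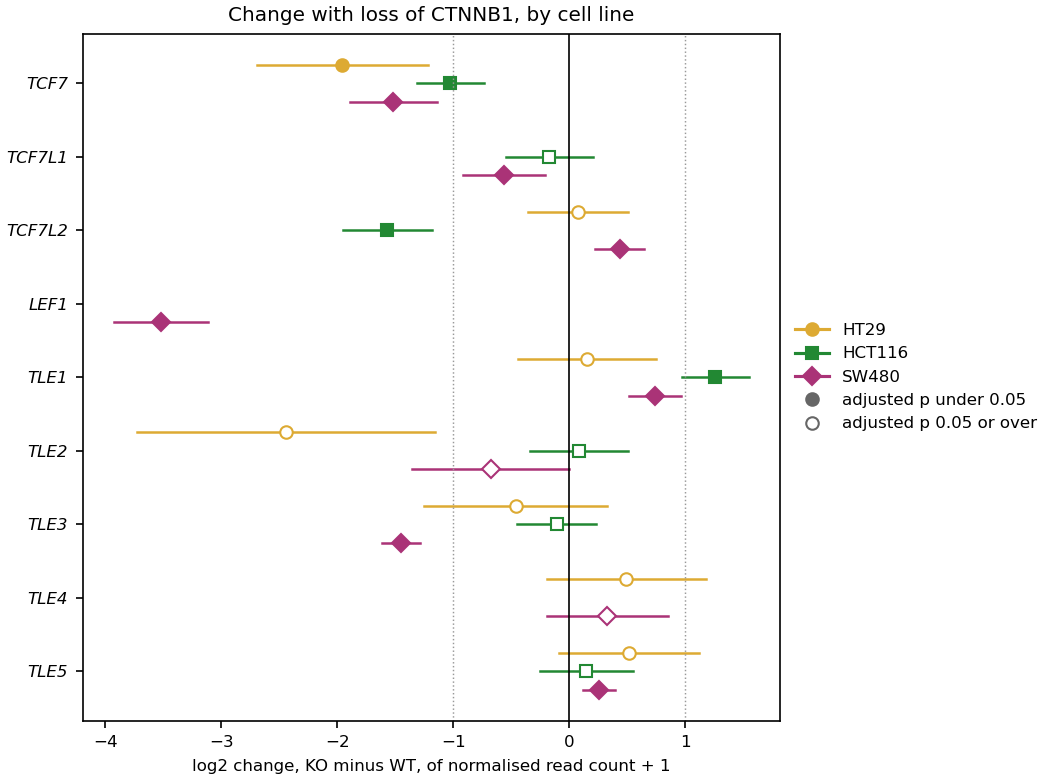
Log2 change of each member, KO minus WT, on the log2(normalised read count + 1) scale, with 95% intervals from limma (4 against 4 libraries per line) and dotted lines at a change of 1 in either direction. Filled symbols passed an adjusted p of 0.05; no symbol is drawn where a gene did not meet the filter. TCF7 lies left of 0 in 3 lines, and TCF7L2 lies on opposite sides in HCT116 and SW480.

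TLE1 rose in HCT116 and SW480. In HCT116 its counts were 668 and 527 in WT clone 4, 749 and 614 in WT clone 6, 1691 and 1612 in KO clone 44 and 1453 and 1339.8 in KO clone 47. KO libraries were all above WT libraries and reached 238% of the WT mean, with a log2 change of 1.26 (SE 0.13, adjusted p = 0.000121), and 1.28 (adjusted p = 0.000463) without KO clone 47 round A. In SW480 it was at 669 and 707 in WT clone 4, 747 and 695 in WT clone 5, 1051 and 1047 in KO clone 17 and 1228 and 1399 in KO clone 21. These groups did not overlap either, the KO mean was 168% of WT and the log2 change of 0.74 (SE 0.10, adjusted p = 0.00017) passed the test but not the fold threshold. HT29 had 3462 and 3863 in WT clone 11, 1749 and 2021 in WT clone 40, 3116 and 3220.2 in KO clone 28 and 2630.3 and 2730.4 in KO clone 38. The HT29 KO libraries lay between the WT clones, and the log2 change was 0.15 (SE 0.26, adjusted p = 0.799) with a 95% interval of -0.45 to 0.75. The KO effect in HT29 minus that in HCT116 was -1.10 (SE 0.27, adjusted p = 0.0113), which passed both thresholds, and -1.10 (adjusted p = 0.413) with rounds averaged. For HT29 minus SW480 it was -0.58 (SE 0.27, adjusted p = 0.161), or -0.78 (adjusted p = 0.0353) without WT clone 40 round A, and for HCT116 minus SW480 0.52 (SE 0.27, adjusted p = 0.234).

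TLE3 fell in SW480, the line in which it was most abundant. The SW480 counts were 5662 and 5341 in WT clone 4, 6003 and 5649 in WT clone 5, 2305 and 2100.1 in KO clone 17 and 1892 and 2018 in KO clone 21. KO libraries were all below WT libraries at 36.7% of the WT mean, and the log2 change was -1.45 (SE 0.07, adjusted p = 1.46e-07). In HCT116 the counts of 1059 and 1181 in WT clone 4, 1135 and 1358 in WT clone 6, 906 and 912 in KO clone 44 and 1246 and 1381 in KO clone 47 overlapped, with a log2 change of -0.11 (SE 0.15, adjusted p = 0.686) and a 95% interval of -0.45 to 0.23, and -0.17 (adjusted p = 0.554) without KO clone 47 round A. In HT29 they were 473 and 407 in WT clone 11, 1097 and 1003 in WT clone 40, 628 and 540.1 in KO clone 28 and 444 and 389 in KO clone 38. WT clone 11 lay within the KO range and WT clone 40 above it, and the log2 change was -0.46 (SE 0.35, adjusted p = 0.529) with a 95% interval of -1.26 to 0.33. The KO effect differed between HCT116 and SW480 by 1.34 (SE 0.34, adjusted p = 0.00934), and by 1.33 (adjusted p = 0.3) with rounds averaged. HT29 minus SW480 was 0.98 (SE 0.34, adjusted p = 0.0532). Without WT clone 40 round A that difference was 1.21 (adjusted p = 0.011), without WT clone 40 round B 1.17 (adjusted p = 0.0191) and without KO clone 38 round B 1.10 (adjusted p = 0.0321).

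TLE2 was scarce in HT29, where the counts were 45.1 and 40.5 in WT clone 11, 23.7 and 16.3 in WT clone 40, 12.1 and 5.87 in KO clone 28 and 1.90 and 2.59 in KO clone 38. All KO libraries were below all WT libraries, but KO libraries held 2 to 12 reads, and the log2 change of -2.44 (SE 0.57, adjusted p = 0.0632) did not pass the test. DESeq2 on the recovered reads gave -2.51 (adjusted p = 0.00541). In HCT116, where TLE2 was most abundant, counts of 435 and 332 in WT clone 4, 549.8 and 454 in WT clone 6, 579.7 and 376 in KO clone 44 and 548 and 383 in KO clone 47 overlapped, with a log2 change of 0.09 (SE 0.19, adjusted p = 0.809) and a 95% interval of -0.34 to 0.51, and 0.0034 (adjusted p = 0.994) without KO clone 47 round A. In SW480 they were 95.01 and 97.4 in WT clone 4, 66.6 and 42.1 in WT clone 5, 32.0 and 50.5 in KO clone 17 and 37.4 and 63.4 in KO clone 21, and the log2 change was -0.68 (SE 0.31, adjusted p = 0.0912). Leaving out WT clone 5 round B gave -0.93 (adjusted p = 0.0204), and DESeq2 gave -0.74 (adjusted p = 0.0483). TLE2 met the filter in HT29 because of its WT libraries, so the differences of the KO effect with HT29 are a description. The KO effect in HT29 was below that in HCT116 by -2.53 (SE 0.56, adjusted p = 0.00668) and below that in SW480 by -1.76 (SE 0.56, adjusted p = 0.0381). The latter missed the test in 8 of the 24 fits that left out 1 library, those without HT29 KO clone 38 round A or B, HT29 WT clone 11 round A or B, SW480 KO clone 17 round B, SW480 KO clone 21 round B and SW480 WT clone 5 round A or B, with a highest adjusted p of 0.0922. It was also lost with a pseudocount of 5, at -1.16 (adjusted p = 0.0937), when clone was a random effect, at -1.76 (adjusted p = 0.142), and with rounds averaged, at -1.76 (adjusted p = 0.356). The difference from HCT116 was -1.88 (adjusted p = 0.0112) with a pseudocount of 5 and lost its call with rounds averaged, at -2.52 (adjusted p = 0.318).

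TLE4 was not detected at this depth in HCT116 WT, where all 4 libraries were at 0 reads, which allows up to 3 reads in a library. HCT116 KO clone 44 held 2 and 3 reads, KO clone 47 round B 1 read and KO clone 47 round A 14 reads, and TLE4 did not meet the filter there. In HT29 it was at 207 and 117 in WT clone 11, 162 and 213 in WT clone 40, 194 and 184 in KO clone 28 and 381 and 241 in KO clone 38, with overlapping groups and a log2 change of 0.49 (SE 0.30, adjusted p = 0.446). In SW480 it was at 337 and 440.2 in WT clone 4, 458 and 446 in WT clone 5, 360.2 and 403 in KO clone 17 and 723 and 713 in KO clone 21. KO clone 21 was above all WT libraries and KO clone 17 was not, and the log2 change was 0.33 (SE 0.23, adjusted p = 0.276). With KO clone 17 left out it was 0.78 (adjusted p = 0.000799). TLE5 was high in all 24 libraries, from 1882 to 4962. In SW480 its counts were 3404 and 3232 in WT clone 4, 3286 and 3188 in WT clone 5, 3602 and 3919 in KO clone 17 and 3987 and 4139.6 in KO clone 21. The KO libraries were all above WT, at 119% of the WT mean, and the log2 change of 0.25 (SE 0.06, adjusted p = 0.00739) passed the test but not the fold threshold. It was 0.24 (adjusted p = 0.0577) with WT clone 5 left out and 0.25 (adjusted p = 0.144) with rounds averaged. The TLE5 log2 change was 0.51 (SE 0.27, adjusted p = 0.377) in HT29 and 0.15 (SE 0.18, adjusted p = 0.638) in HCT116, where the groups overlapped, and 0.21 (adjusted p = 0.562) in HCT116 without KO clone 47 round A.

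The difference of the KO effect between lines was tested for genes that met the filter in both. For HT29 against HCT116 3 of 6 members passed both thresholds (TCF7L2, TLE1 and TLE2), against 5.11% of all genes tested. For HT29 against SW480 it was 1 of 7 (TLE2), against 9.53%, and for HCT116 against SW480 2 of 7 (TCF7L2 and TLE3), against 8.1%. TLE2 entered the tests with HT29 because of its HT29 WT libraries, so the counts that include it are a description. Without HCT116 KO clone 47 round A, HT29 minus HCT116 was 1.54 (adjusted p = 0.000313) for TCF7L2, -1.13 (adjusted p = 0.0171) for TLE1, -2.45 (adjusted p = 0.0148) for TLE2 and -0.90 (adjusted p = 0.14) for TCF7. Without it, HCT116 minus SW480 was -1.90 (adjusted p = 9.59e-06) for TCF7L2, 1.27 (adjusted p = 0.0225) for TLE3, 0.54 (adjusted p = 0.264) for TLE1 and 0.46 (adjusted p = 0.498) for TCF7, and these kept their side of the test.

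WT cells of the 3 lines differed in which family members they transcribed. Both thresholds were passed by 6 of 8 members tested between HT29 and HCT116 WT cells, 7 of 9 between HT29 and SW480 and 6 of 9 between HCT116 and SW480, against 36.9%, 39.5% and 39.7% of all genes tested. TCF7L1 and LEF1 in HT29 and LEF1 and TLE4 in HCT116 were at or near 0 and entered such tests through the other line alone, so these counts are a description. Levels of different genes are compared per kb of annotated exon. In HT29 WT, TCF7 (285 ± 82.3 per kb, mean ± SD of 4 libraries) and TCF7L2 (205 ± 34.2) made up nearly all TCF/LEF transcript and lay within the spread of each other, but per kb of the MANE Select transcript, 1 reference transcript per gene, TCF7 (876 ± 253) was above TCF7L2 (339 ± 56.6). In HCT116 WT, TCF7L2 led with 606 ± 129, followed by TCF7L1 (87.2 ± 12.9) and TCF7 (84.1 ± 7.65), which did not differ beyond their spread. Per kb of the MANE Select transcript TCF7 (258 ± 23.5) was above TCF7L1 (129.5 ± 19.1). In SW480 WT the order was LEF1 (676 ± 64.9), TCF7 (304 ± 25.5), TCF7L2 (93.9 ± 7.97) and TCF7L1 (63.1 ± 10.2), and by the MANE length LEF1 (1013 ± 97.3) and TCF7 (933 ± 78.4) lay within the spread of each other. TCF7 was lower in HCT116 WT than in HT29 WT by 1.72 (SE 0.24, adjusted p = 1.45e-06) and than in SW480 WT by -1.85 (SE 0.24, adjusted p = 4.64e-07) on the log2 scale, the differences being written as first minus second line in the order HT29, HCT116, SW480. HT29 and SW480 differed by -0.13 (SE 0.24, adjusted p = 0.645). TCF7L2 decreased from HCT116 to HT29 to SW480, with HT29 minus HCT116 at -1.55 (SE 0.17, adjusted p = 3.26e-08) and HT29 minus SW480 at 1.11 (SE 0.17, adjusted p = 4.29e-06). LEF1 was at least 1298-fold higher in SW480 WT than in HCT116 WT, where a floor of 3 reads per library was used for the libraries at 0. TCF7L1 was at 5.73 ± 3.52 in HT29 WT, from 2 to 8 reads per library, against 387 ± 57.0 in HCT116 WT and 279.8 ± 45.3 in SW480 WT, and HCT116 minus SW480 was 0.47 (SE 0.58, adjusted p = 0.502). That SE also holds the spread of the HT29 libraries, which are near 0. The SE of the KO effect within a line was 0.17 in HCT116 and 0.16 in SW480.

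Among the TLE genes, TLE5 was the highest per kb in each WT line, at 586 ± 218 in HT29, 651 ± 138 in HCT116 and 626 ± 17.9 in SW480, and no pair of lines differed by the test, with adjusted p-values of 0.393, 0.478 and 0.897. In HT29 WT, TLE1 (528 ± 199 per kb) was within the spread of TLE5, and by the MANE length it was lower, at 671 ± 253 against 1706 ± 634. TLE1 was higher in HT29 WT than in HCT116 by 2.05 (SE 0.19, adjusted p = 2.33e-09) and than in SW480 by 1.90 (SE 0.19, adjusted p = 6.88e-09), whereas HCT116 minus SW480 was -0.15 (SE 0.19, adjusted p = 0.503). TLE3 was highest in SW480 WT (449 ± 21.4 per kb), with HT29 minus SW480 at -3.06 (SE 0.24, adjusted p = 1.08e-10) and HCT116 minus SW480 at -2.26 (SE 0.24, adjusted p = 1.99e-08). TLE2 was highest in HCT116 WT (107 ± 21.5 per kb), with HT29 minus HCT116 at -3.86 (SE 0.40, adjusted p = 1.68e-08) and HCT116 minus SW480 at 2.59 (SE 0.40, adjusted p = 5.94e-06). TLE4 was at least 62.6-fold higher in HT29 WT and at least 151-fold higher in SW480 WT than in HCT116 WT, where it was at 0. TLE4 in HT29 minus SW480 was -1.29 (SE 0.43, adjusted p = 0.012), and this call was lost when clone was a random effect, at -1.29 (adjusted p = 0.0865), and with rounds averaged, at -1.26 (adjusted p = 0.0574). The SE came from the fit of all 24 libraries and also holds the spread of HCT116 KO, at 1 to 14 reads. Without HCT116 KO clone 47 round A the adjusted p by limma was 0.000483. HT29 WT libraries, at 117 to 213, lay below SW480 WT libraries, at 337 to 458.

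Summed per kb over the 4 TCF/LEF genes, KO cells held 59.84%, 41.58% and 29.83% of the WT sum in HT29, HCT116 and SW480. The sum of the 5 TLE genes was 118.7%, 125.1% and 95.01% of WT. With the length of the MANE Select transcript in place of all annotated exons, the shares were 48.87%, 41.73% and 31.79% for TCF/LEF and 124.3%, 117.8% and 95.45% for TLE. These sums were not tested, and no TLE gene passed the test in HT29. The HT29 WT clones were unlike in TLE1 and TLE5, which lead the TLE sum. TLE1 averaged 3663 and 1885 in WT clones 11 and 40, against 3168 and 2680 in KO clones 28 and 38. TLE5 averaged 3998 and 2137, against 4072 and 4292. TCF7L2 made up 41.6% of the TCF/LEF sum in HT29 WT and 73.4% in HT29 KO, 77.9% and 62.9% in HCT116, and 8.26% and 37.5% in SW480, and per kb of annotated exon it was the first of the 4 genes in the KO cells of each line. By the MANE length TCF7 was first in SW480 KO, with 47.8% of the sum against 30.1% for TCF7L2. Without HCT116 KO clone 47 round A, the HCT116 KO sums per kb of annotated exon were 42.7% of WT for TCF/LEF and 128% for TLE, and TCF7L2 made up 65.4% of the former. LEF1 went from 59.4% to 17.8% of the TCF/LEF sum in SW480. TLE5, which lacks the WD40 domain, made up 48.8%, 66.9% and 49.0% of the TLE sum in HT29, HCT116 and SW480 WT. In KO cells it made up 56.0%, 59.5% and 61.5%, so the TLE sum does not stand for the full-length genes alone. By the MANE length TLE5 made up 66.8%, 78.5% and 58.9% in WT cells and 73.3%, 74.3% and 73.7% in KO cells. In SW480, TLE3 went from 449 to 165 per kb and TLE2 from 18.2 to 11.1. TLE1 went from 134 to 225 there and TLE4 from 50.8 to 66.4.

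**Figure D3:**
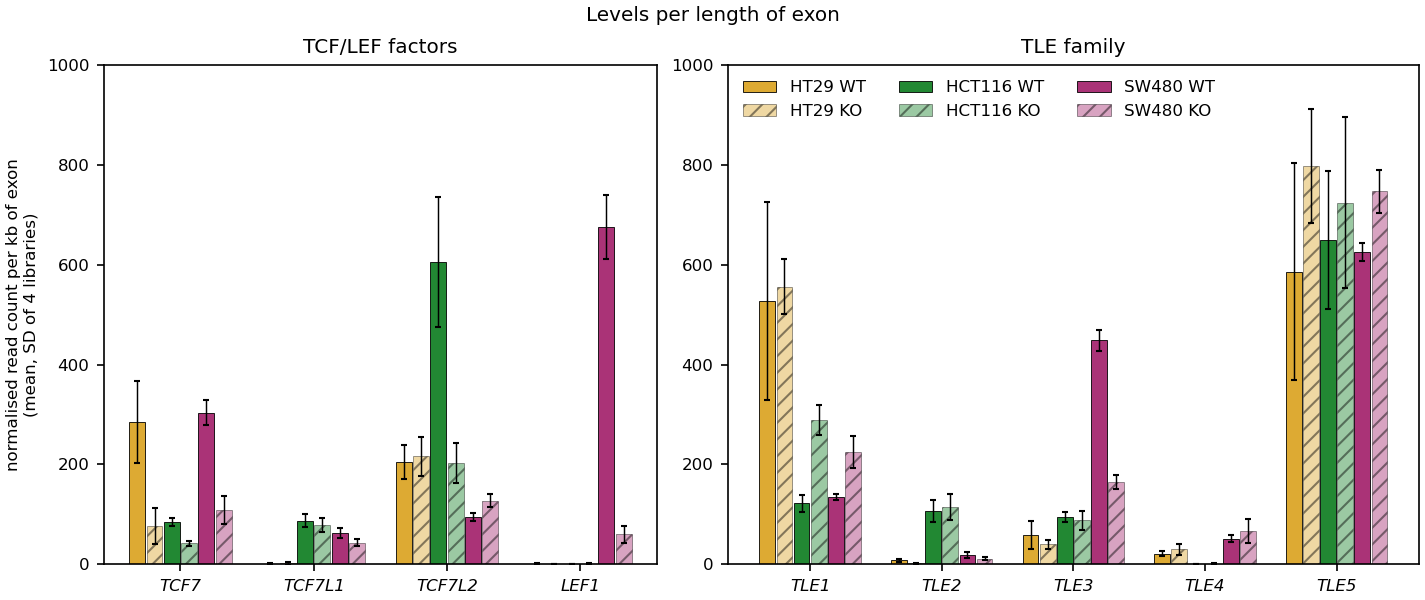
Normalised read count per kb of annotated exon (linear axis from 0) of the 4 TCF/LEF genes and the 5 TLE genes, with solid bars for WT and hatched bars for KO and error bars of 1 SD over 4 libraries. HCT116 WT is led by TCF7L2 and SW480 WT by LEF1, and TLE5 has similar bars in the WT cells of each line.

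Clones of the same genotype were compared with the error between rounds. Where 1 library of a clone was left out, the spread came from the other clones and the remaining library was assumed to vary like them. Between HT29 WT clones 11 and 40, 3 of 7 members passed the test, against 9.02% of all genes, and 1 passed both thresholds, against 7.58%. TLE3 was lower in clone 11 by -1.25 (SE 0.20, adjusted p = 0.00704), TLE1 was higher by 0.96 (SE 0.17, adjusted p = 0.0116) and TLE5 was higher by 0.91 (SE 0.22, adjusted p = 0.0458). Each of these calls was lost without either round of WT clone 40 or without WT clone 11 round B, with adjusted p-values of up to 0.0786 for TLE3, 0.112 for TLE1 and 0.295 for TLE5. Those of TLE1 and TLE5 were also lost without WT clone 11 round A, and that of TLE5 without either round of KO clone 28. TCF7 differed between these WT clones by -0.74 (SE 0.30, adjusted p = 0.207), and by -0.74 (adjusted p = 0.00221) without KO clone 38 round A and -0.74 (adjusted p = 0.00213) without its round B. Between HT29 KO clones 28 and 38 none of 7 members passed the test, against 16% of genes by the test and 12.5% by both thresholds, although without KO clone 38 round B, which left the round with the high TCF7 value as the lone library of that clone, TCF7 differed by -1.27 (adjusted p = 0.000233) and TLE4 by -1.01 (adjusted p = 0.0494), and without round A TLE3 differed by 0.58 (adjusted p = 0.0294).

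SW480 KO clones 17 and 21 differed in 4 of 9 members by the test, against 28% of all genes, and in none by both thresholds, against 4.61%. Clone 17 had more TCF7, by 0.67 (SE 0.07, adjusted p = 7.19e-06), and less LEF1, by -0.71 (SE 0.10, adjusted p = 0.000116), TLE4, by -0.91 (SE 0.12, adjusted p = 5.68e-05), and TLE1, by -0.32 (SE 0.09, adjusted p = 0.0139). The TLE1 call was lost without clone 21 round B, at -0.23 (adjusted p = 0.138), and without either round of clone 17, at -0.32 (adjusted p = 0.0822) for round A and -0.32 (adjusted p = 0.0826) for round B. TCF7L2 differed by -0.25 (SE 0.09, adjusted p = 0.0566), and by -0.25 (adjusted p = 0.0451) without WT clone 5 round A and -0.25 (adjusted p = 0.0436) without its round B. TCF7 and LEF1 stood in opposite order in the clones. Between SW480 WT clones 4 and 5 none of 9 members passed the test, against 8.88% of genes by the test and 1.97% by both thresholds. In HCT116 the WT clones 4 and 6 differed in none of 7 members, against 2.61% and 1.44%. HCT116 KO clones 44 and 47 differed in TLE3, by -0.53 (SE 0.13, adjusted p = 0.0436), against 7.16% of genes by the test and 3.28% by both thresholds, and by -0.60 (adjusted p = 0.0532) without clone 47 round A. That call was lost without any 1 of the 8 HCT116 libraries, at adjusted p-values of up to 0.194, and TLE5 passed between these clones without either round of WT clone 4, at 0.56 (adjusted p = 0.0403) and 0.56 (adjusted p = 0.0391). With the round as a replicate block, TLE5 passed as well, at 0.56 (adjusted p = 0.000625), as did TCF7L1, at -0.42 (adjusted p = 0.0388). Between the HCT116 WT clones the block gave TCF7L2 -0.39 (adjusted p = 0.0127) and TLE5 0.37 (adjusted p = 0.0183).

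Genes known as TCF/LEF targets were set beside the factors. The 18 listed include genes that the study examined in these cells, so their direction is not independent evidence. By the test, 0 rose and 4 fell of 13 measured in HT29, 1 rose and 6 fell of 14 in HCT116, and 4 rose and 13 fell of 17 in SW480. Of all genes tested 2.56%, 14% and 48.1% passed, and 0.476%, 5.93% and 22.1% passed with lower values in KO. The median log2 change of the list was -0.98, -0.59 and -2.96, beside 0.03, -0.01 and -0.0042 for all genes tested. AXIN2, a negative feedback scaffold of the pathway, fell in each line, by -3.70 (SE 0.70, adjusted p = 0.0321), -5.25 (SE 0.31, adjusted p = 1.17e-06) and -4.74 (SE 0.15, adjusted p = 6.65e-09), and so did ZNRF3, a membrane ubiquitin ligase that removes WNT receptors, with log2 changes of -1.14, -0.64 and -2.36. The stem cell receptor gene LGR5 fell in HT29 by -4.36 (SE 0.90, adjusted p = 0.0422). RNF43, a second such ligase, changed by -4.76 in HCT116 and -2.96 in SW480, NKD1 by -0.89 and -6.08, BMP4 by -4.34 and -1.99, and MYC by -0.49 and -0.80. CD44 rose in HCT116 and SW480, by 1.25 and 1.30, and EPHB2 fell in HT29 by -1.93 but rose in SW480 by 0.82.

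Nuclear partners of β-CATENIN and TCF/LEF proteins, such as BCL9, PYGO and chromatin coactivators, were counted next. Of 12, 13 and 13 measured, none passed the test in HT29, 2 fell in HCT116, and 3 rose and 5 fell in SW480, against 2.56%, 14% and 48.1% of all genes, with list medians of -0.31, -0.15 and -0.24. In SW480 the adaptor gene BCL9L rose by 1.23 (SE 0.16, adjusted p = 0.000137) and BCL9 by 0.61 (SE 0.11, adjusted p = 0.000902), and TBL1XR1, a component of corepressor complexes, changed by -0.71 (SE 0.08, adjusted p = 3.52e-05). RUVBL1 changed by -0.35 in HCT116 and -0.32 in SW480. Of inhibitors and modifiers of TCF/LEF and TLE function, 0 of 15 passed in HT29, 3 rose and 1 fell of 15 in HCT116, and 5 rose and 3 fell of 16 in SW480, against the same 2.56%, 14% and 48.1%, with medians of 0.05, 0.05 and 0.13. CTNNBIP1, whose product ICAT keeps β-CATENIN from binding TCF proteins, rose in HCT116 by 0.73 (SE 0.16, adjusted p = 0.0125) and in SW480 by 2.29 (SE 0.11, adjusted p = 1.23e-07). HDAC1, a deacetylase recruited by TLE proteins, rose by 0.33 and 0.32, and NLK, a kinase that phosphorylates TCF/LEF proteins, fell in SW480 by -1.29 (SE 0.10, adjusted p = 2.45e-06).

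Other DNA-binding proteins that recruit TLE, including the HES, HEY, RUNX and FOXA factors, were counted as well. Of 10, 13 and 16 measured, 1 fell in HT29, 1 rose and 2 fell in HCT116, and 2 rose and 9 fell in SW480, where 26.1% of all genes were higher and 22.1% lower in KO (2.56% and 14% passed in HT29 and HCT116), with medians of 0.20, -0.11 and -0.69. RUNX2 changed by -2.27 (SE 0.07, adjusted p = 5.56e-09), HEY2 by -4.52 (SE 0.28, adjusted p = 5.49e-07) and HES6 by -2.15 (SE 0.14, adjusted p = 6.39e-07) in SW480, and HES6 by -0.91 in HCT116. HHEX changed by -0.49 in HCT116 and -0.55 in SW480. HES7 fell in HT29, by -2.83, and rose in SW480, by 0.96. Its HT29 level was 22.5 ± 4.27 in WT and 2.94 ± 2.13 in KO (mean ± SD, n = 4). HES7 thus met the filter in HT29 through WT alone, and that call is a description. TLE6, a divergent relative of the TLE genes, passed the test in no line, with log2 changes of 0.88, -0.53 and 0.41. Markers of other cell types also moved in SW480, where the fibroblast marker COL1A2 changed from 81.7 ± 37.7 to 0.465 ± 0.536 and the leukocyte marker LCK from 33.6 ± 14.5 to 91.1 ± 17.3 (mean ± SD, n = 4). The fibroblast marker COL1A1 was at 172 ± 81.2 and 132 ± 12.3 in SW480 WT and KO and did not pass the test. The other leukocyte, fibroblast and endothelial markers, PTPRC, CD3D, CD3E, CD2, COL3A1, DCN and CDH5, reached at most 2.80, 0, 6.76, 0, 1.01, 0.979 and 1.88 in SW480. Of the epithelial markers, KRT19 and KRT20 rose in HT29, from 24065 ± 1541 to 71886 ± 19375 and from 3669 ± 2192 to 16524 ± 4968. In HCT116 EPCAM and CDH1 rose by 0.46 and 1.17 on the log2 scale, KRT20 fell from 77.8 ± 19.2 to 0.484 ± 0.558 and CDX2 changed by -0.47. In SW480 EPCAM changed by -0.99 and CDX2 fell from 1097 ± 263 to 106 ± 55.8. The part of these markers in the results was not tested.

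**Figure D4:**
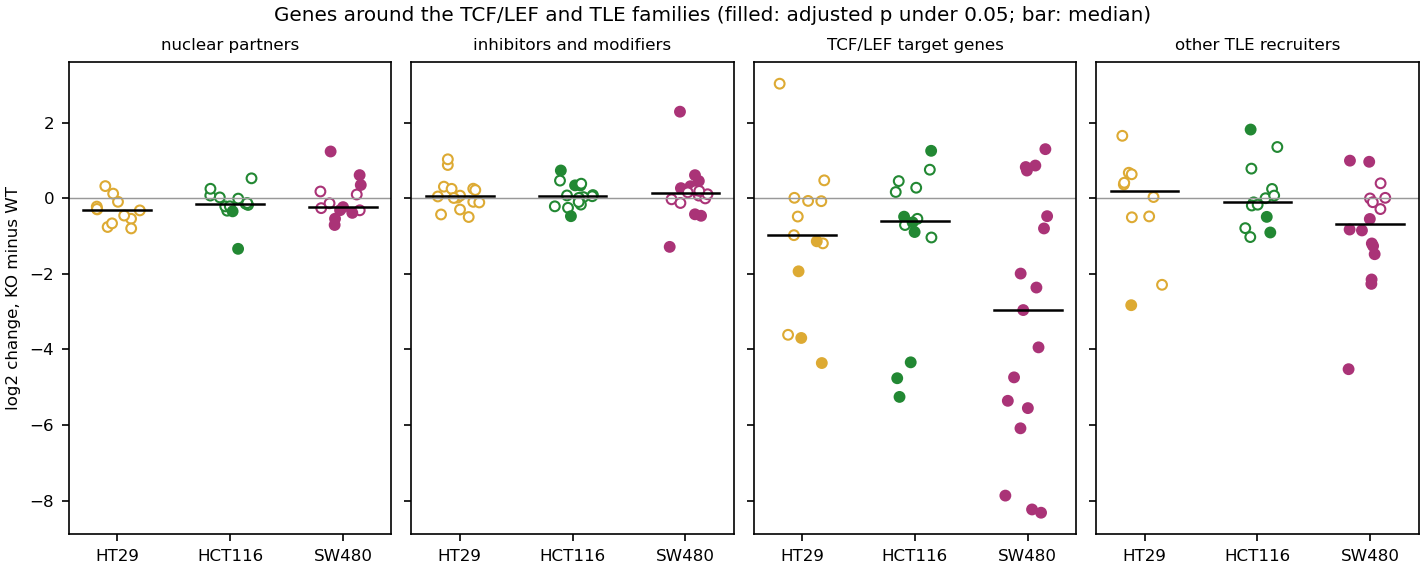
Log2 change, KO minus WT, of every measured gene of 4 lists (nuclear partners, inhibitors and modifiers, TCF/LEF target genes, other TLE recruiters) by cell line, with filled symbols for an adjusted p below 0.05 and a bar at the list median. The target list has the lowest medians, -0.98 for HT29, -0.59 for HCT116 and -2.96 for SW480.

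The genes whose levels were most like those of each member were sought over the means of the 12 clones, by Pearson's r of log2(normalised read count + 1) among 11710 other genes with a mean of at least 100. These points share their cell lines, and r is given as a description. For TCF7 they were WDR27 (r = 0.961) and NEU3 (0.915), for TCF7L1 VPS35L (0.992) and HOXC9 (0.992), for TCF7L2 THUMPD1 (0.955) and ZDHHC6 (0.947), and for LEF1 ZAP70 (0.981) and TMEM47 (0.979). For TLE1 they were SECISBP2 (0.962) and ICA1 (0.959), for TLE2 WNT10B (0.979) and SUPT16H (0.965), for TLE3 DSTYK (0.979) and ISM1 (0.973), for TLE4 ZNF717 (0.989) and TCEAL1 (0.988), and for TLE5 CREG1 (0.843) and POLR3GL (0.827). Among the members themselves LEF1 and TLE3 had the highest r, 0.826, and TCF7L1 and TLE1 the lowest, -0.847.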

How the data were processed

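RNA-seq libraries (TruSeq RNA Sample Prep Kit v2, poly-A selected, not strand-specific, paired-end) were made by the authors from 12 clones, each sampled in round A and in round B (24 libraries). Per the labels and methods, reads were demultiplexed with bcl2fastq, aligned to GRCh37 with STAR 2.7.5b, counted per gene with featureCounts 2.0.1 and divided by 1 size factor per library with DESeq2 (Galaxy 2.11.40.6). The deposited values are this normalised signal. Tables of the authors' own comparisons (fold changes and p-values) were not used.

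In every library 100% of values were whole multiples of the value of 1 read (tolerance 0.1 read), and whole reads were recovered from them. Depth was 22297049 to 29068378 reads on genes. Counting intervals and floors (3 reads) cover counting error only. Of 276 pairs of libraries, 0 were identical. Gene symbols came from GENCODE v44lift37 (95.8% of 58051 identifiers matched), and 1 listed marker symbol had no match. Start-site sequences came from RefSeq and matched GRCh37 exactly.

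Genes that reached a value of 10 in 4 or more libraries were tested with limma 3.58.1 (R 4.3.3, trend, robust, pseudocount 1) and Benjamini-Hochberg adjustment over all genes tested. KO and WT cells were compared within a line. Differences of the KO effect and WT levels came from 1 fit of 6 group means, and clones from a fit of 4 clone means. Alternatives were pseudocounts of 0.1 and 5, edgeR 4.0.16 and DESeq2 1.42.0 on the recovered reads, total count scaling, no filter, clone as a random effect, rounds averaged per clone, the round as a replicate block, and leaving out each library or clone. The MANE Select transcript length and family sums without HCT116 KO clone 47 round A were added after seeing the data. The script was tested on simulated data.

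Differences between rounds A and B were compared across genes for each pair of clones of a line. The correlation was above 0.1 in 6 of 6 pairs in HCT116, 2 of 6 in HT29 and 1 of 6 in SW480. It ranged from 0.182 to 0.374 in HCT116, from -0.309 to 0.424 in HT29 and from -0.0411 to 0.127 in SW480.

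All 9 members were described in each line, but not every comparison or library value of them is printed. Of each list of other genes, at most the 5 with the smallest adjusted p in a line and those that changed in more than 1 line were named. The members and lists were chosen with earlier results of these data known.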

Additional observations from a re-analysis of the deposited data

Results flagged for a closer look

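In 6 of 52 groups of 4 libraries with unequal values, 1 library lay farther from the other 3 than the 95% critical value of Dixon's test allows. For independent, normally distributed values about 1 group in 20 would be flagged. Libraries that share clones and counts near 0 do not meet that condition, so 6 of 52 is a description. TCF7 in HT29 KO clone 38 round A stood at 1327 against 549.9 to 659 in the other HT29 KO libraries. TCF7L2 in SW480 WT clone 5 round A was 712 against 598 to 618, and TLE4 in SW480 WT clone 4 round A was 337 against 440.2 to 458. In HCT116 KO clone 47 round A, the library with a read in 35449 genes, LEF1 was 9.63 against 0 and TLE4 was 15.0 against 0.952 to 2.83. LEF1 in HT29 KO clone 28 round B was 1.96 against 0, from 2 reads. In both LEF1 groups the other 3 libraries were at 0, so that any read in the remaining library would have been flagged.

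The KO effect on 4 members differed between lines by a test of the difference itself (limma, 24 libraries, Benjamini-Hochberg adjustment over all genes tested). HT29 minus HCT116 was -1.10 (SE 0.27, adjusted p = 0.0113) for TLE1, 1.65 (SE 0.24, adjusted p = 9.05e-05) for TCF7L2 and -2.53 (SE 0.56, adjusted p = 0.00668) for TLE2. HT29 minus SW480 was -1.76 (SE 0.56, adjusted p = 0.0381) for TLE2. In HT29 TLE2 met the filter because of its WT libraries, and its differences are a description. HCT116 minus SW480 was -2.01 (SE 0.24, adjusted p = 2.57e-06) for TCF7L2 and 1.34 (SE 0.34, adjusted p = 0.00934) for TLE3.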

How the results depend on the processing

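Over 115 results for single members and 2507 alternative fits of them, 2423 kept their side of an adjusted p of 0.05, 56 lost the call, 28 gained it and 0 reversed a call. The number of members past both thresholds in HT29 KO against WT was 1, and it was 0 with clone as a random effect, 0 with rounds of a clone averaged, 0 with WT clone 40 left out, 2 by DESeq2, and 0 to 1 without single libraries. For the difference of the KO effect, HT29 against SW480 went from 1 to 0 with a pseudocount of 5, 0 with clone as a random effect and 0 with rounds averaged, and was 0 to 2 without single libraries. HT29 against HCT116 went from 3 to 1, and HCT116 against SW480 from 2 to 1, with rounds averaged. Between HT29 WT clones it went from 1 to 2 with total count scaling and was 0 to 1 without single libraries, and between HT29 KO clones it was 0 to 2 without single libraries. Rounds averaged left 2 clones per genotype, and the cause of the other changes was not tested.

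Over all genes, 343 passed both thresholds in HT29 KO against WT, and 121 with clone as a random effect, 217 with the replicate block, 0 with rounds averaged (at an unadjusted p below 0.05, 858), 784 by DESeq2, 213 without WT clone 40, 647 without KO clone 28, 648 without KO clone 38 and 145 to 331 without single libraries. HCT116 had 779, and 359 with rounds averaged and 1180 without KO clone 47. Differences of the KO effect numbered 692 (HT29 against HCT116), 1310 (HT29 against SW480) and 1143 (HCT116 against SW480), against 341, 837 and 731 with clone as a random effect and 55, 269 and 276 with rounds averaged. HCT116 WT clones had 222, and 424 with the replicate block and 89 to 262 without single libraries. Without single libraries, HT29 KO clones had 764 to 4882 (1872 with all) and HT29 WT clones 455 to 1675 (1131 with all).

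The replicate block on rounds changed 4 member calls, all gains between HCT116 clones, and no other member call. LEF1 and TLE4 in HCT116 and LEF1 and TCF7L1 in HT29 had too few reads to meet the filter on low values. With 2 clones per genotype, the spread between clones rests on few founder cells. Shares per length of exon moved by over 5 percentage points with MANE lengths for 22 of 54 member and group pairs.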
